A study of Danio rerio with 8 samples.

Results

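The Notch pathway was examined in sorted cells of the zebrafish pineal complex, by way of 37 genes that encode its receptors, ligands, modifiers, transcriptional targets and feedback inhibitors. The members were taken by name: rows of the authors' table whose gene symbol equals 1 of these names. Of the 37 names 35 had a row among the 32433 rows of the table, and 34 of these were tested by the authors. The names jag2b and dtx4 had no row of their own, and mib had a row that was not tested.

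The study sequenced RNA from Kaede-positive cells sorted out of embryo heads at 24 to 26 hours post-fertilization. Kaede, a photoconvertible fluorescent protein, is driven in the line Tg(flhBAC:kaede)vu376 by regulatory sequence of flh, a homeobox gene of the pineal anlage, and every group carries this transgene. Wild-type cells came from embryos that received no injection (4 libraries), and knockdown cells from embryos given a morpholino that targets splicing of the T-box gene tbx2b, at 5 ng (2 libraries) or 6 ng (2 libraries). The labels pair the libraries as technical replicates, so each group rests on 2 RNA samples, and injection, dose and loss of Tbx2b cannot be told apart. The table gives each group 1 FPKM value per gene, that is fragments scaled by transcript length and by mapped total. Library spread and depth are therefore unknown. Where a pair of values is printed it is the authors' value for wild-type and then for the knockdown.

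Notch signalling passes between touching cells. A Delta or Jagged ligand on one cell binds a Notch receptor on its neighbour, proteases release the receptor's intracellular part, and this part joins Rbpj in the nucleus to switch on her and hey genes, whose products repress neuronal differentiation genes. In the zebrafish pineal organ Notch activity is known to restrain the projection neuron fate, so the pathway bears on how the organ shares out its photoreceptors and neurons.

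The sorted cells carried RNA for Notch receptors, Delta and Jagged ligands, Fringe enzymes and her and hey targets. Bulk RNA does not tell which of the sorted cells held it. No member was called changed in the knockdown. In the authors' deposited table, made with Cuffdiff per the submitters' processing notes, 0 of 34 tested members were called higher and 0 lower, against 0.106% and 0.332% of the 18954 genes tested. At an unadjusted p under 0.05 the deposited table has 1 member higher, the ligand gene dlb, and 1 lower, the target gene heyl; among all tested genes 1.77% were higher and 3.76% lower by that rule. The median log2 fold change of the 34 members was -0.11, against -0.03 over the 18800 tested genes above 0 in both groups. Of the members 22 lay below 0 and 12 above, so 64.7% were below 0, against 54.1% of those 18800 genes. With both group values at 10 FPKM or more, a limit chosen after the data were seen, the median was -0.11 for 30 members. Over all 6498 tested genes at that level it was 0.009. Below 0 lay 19 of the 30 members and 3149 of the 6498 genes.

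These directions depend on how the groups are scaled. The FPKM sums of the groups differ, and rescaling both to TPM, in which every group has the same sum, adds 0.106 to every log2 fold change. The median of all tested genes then becomes 0.07 and that of the members -0.0074, with 17 members below 0 and 17 above. Of all tested genes above 0 in both groups, 7557 then lay below 0 and 11243 above. At 10 FPKM or more in both groups, 15 of 30 members and 1943 of 6498 tested genes then lay below 0. A total of 5 members change sign by this step, so a difference of that size has no direction that both scales share.

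**Figure D1:**
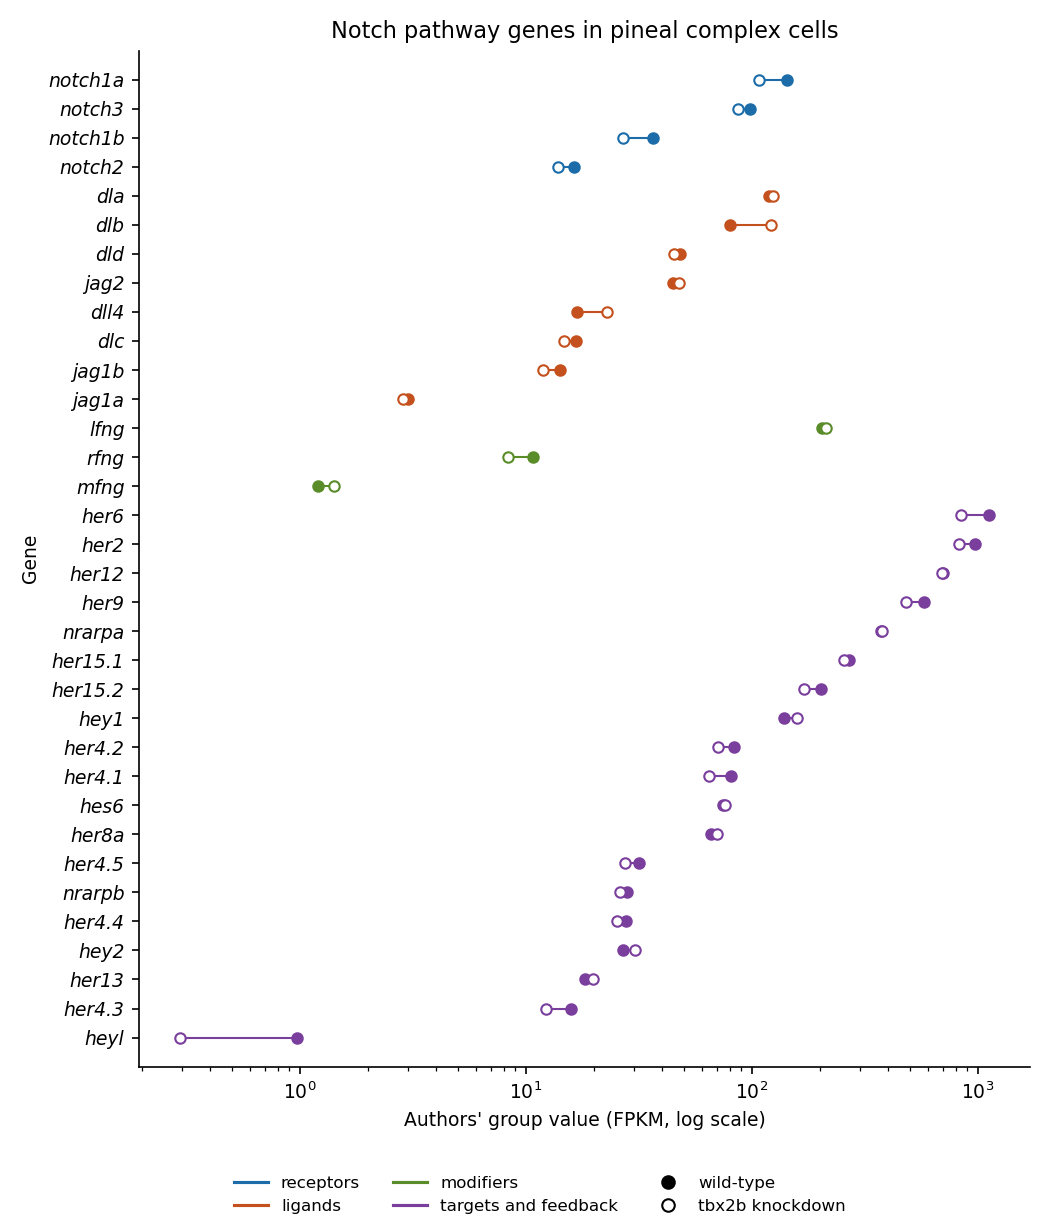
Group values of the 34 tested Notch pathway genes in FPKM on a log axis, grouped by class; filled circles are wild-type, open circles tbx2b knockdown, and each value is the authors' single value per group. The open circle lies close to the filled one for most genes, while dlb is higher and heyl lower in the knockdown.

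The receptors were present at 4 different levels and were lower in the knockdown as values, without a call. Notch3 stood at 97.8 and 87.1 FPKM, notch1b at 36.4 and 26.9 FPKM, and notch2 at 16.3 and 14.0 FPKM. The row named notch1a was at 143 and 108 FPKM. All 4 receptor values lay below wild-type, from 1.12-fold lower for notch3 to 1.35-fold lower for notch1b, and all 4 stayed below on the TPM scale. Of the 6498 tested genes with both group values at 10 FPKM or more, 3149 lay below 0, and 1943 on the TPM scale. The smallest of the 4 receptor p values in the authors' deposited table was 0.142, for notch1b, and q was 0.999 for each.

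The notch1a value needs care. Its row (ENSDARG00000096282) covers 249 bases on Zv9 chromosome 21, 5088099 to 5088347. A longer row named NOTCH1 (2 of 2) (ENSDARG00000044841, 5057238 to 5083787) ends 4311 bases before it. That row was at 104 and 87.0 FPKM, a 1.2-fold lower value, and p was 0.292 in the authors' deposited table. FPKM of so short a row depends strongly on the length it is divided by, so the rank of notch1a above notch3 in wild-type may not hold.

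Delta genes, whose products are the main Notch ligands of the embryonic nervous system, held most of the ligand RNA. Dla was at 119 and 124 FPKM, and dld at 48.3 and 45.2 FPKM, so both differed by less than 1.2-fold. Dlc, known best for its part in segmentation together with dld, was at 16.7 and 14.8 FPKM.

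The ligand gene dlb (ENSDARG00000004232, chromosome 5, 38294021 to 38301923) had the largest difference among members whose values both reach 1 FPKM. Its wild-type value was 79.9 FPKM and its knockdown value 121 FPKM, 1.51-fold higher, and the authors' deposited table gives p = 0.0302 and q = 0.766. This is just past 1.5-fold, which 1.68% of tested genes with both group values at 10 FPKM or more exceed in this direction and 2.52% in the other. No other member passed 1.5-fold upwards, and among all tested genes above 0 in both groups 5.56% did.

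Measured against the other Delta genes, a comparison that the scaling between groups does not touch, dlb took a larger share in the knockdown. It made up 28.5% of the summed FPKM of the 5 Delta genes in wild-type and 36.9% in the knockdown, while dla went from 42.4% to 37.8% and dld from 17.2% to 13.8%. The ratio of dlb to dla was 0.672 and 0.977, so the gap between the 2 most abundant ligand genes nearly closed. With 1 value per group these shares carry no error and no test. Dlb was singled out for its higher value, so its larger share is no separate support.

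**Figure D2:**
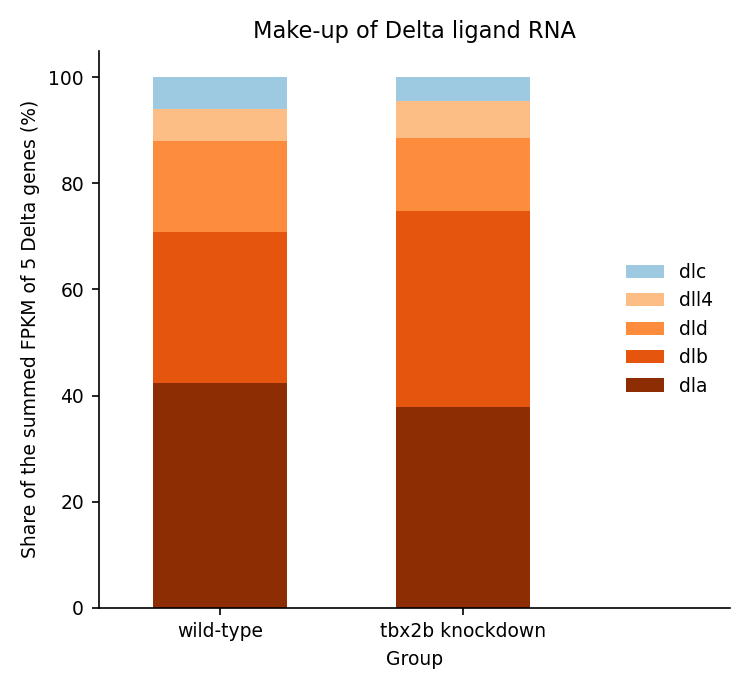
Share of each Delta gene in the summed FPKM of the 5 Delta genes, in percent, for the wild-type and the tbx2b knockdown group; each bar adds to 100 and rests on the authors' single value per group. The dlb segment is 28.5% in wild-type and 36.9% in the knockdown, and the dla segment 42.4% and 37.8%.

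Dll4 (ENSDARG00000070425, chromosome 20, 28274770 to 28283631), the Delta ligand of sprouting vessels and arteries, was at 16.8 and 22.97 FPKM. The value was 1.37-fold higher in the knockdown and was not called (p = 0.0592 and q = 0.954 in the authors' deposited table). Markers of endothelial cells were higher in the same comparison: of 19 tested, 6 rose by the authors' call (etv2, fli1b, tie2, clec14a, tal1 and lmo2), 15 were higher at an unadjusted p under 0.05 in the authors' deposited table, and 18 lay above 0. Among all tested genes 0.106% were called higher and 1.77% were higher by that p rule. The marker list was chosen with earlier results of these data known. Its summed level was 255 FPKM in wild-type and 398 FPKM in the knockdown. Single markers ran from 3.95 to 63.2 FPKM in wild-type and from 7.40 to 55.9 FPKM in the knockdown, with none at 0. Efnb2a, an arterial ephrin ligand that neural cells make too and the most abundant of that list, was at 63.2 and 55.9 FPKM. The part of endothelial cells in the dll4 value was not tested, and in bulk RNA more cells of a type and more RNA per cell cannot be told apart.

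Jagged ligands differed little. Jag2 was the most abundant of them at 44.9 and 47.6 FPKM; its gene ID now carries the symbol jag2b, which accounts for the missing row of that name. A further row, JAG2 (2 of 2), was at 0.140 and 0.199 FPKM and was not tested. Jag1b, whose locus holds a 5S_rRNA row as well, was at 14.2 and 11.9 FPKM, and jag1a at 3.02 and 2.87 FPKM. Summed over the 3 tested genes, Jagged RNA came to 62.2 and 62.4 FPKM, beside 281 and 328 FPKM for the 5 Delta genes.

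Among the modifiers, lunatic fringe dominated. Fringe proteins are Golgi enzymes that extend sugars on the Notch receptor and so bias it towards one class of ligand. Lfng was at 205 and 213 FPKM, rfng at 10.8 and 8.34 FPKM, and mfng at 1.2 and 1.42 FPKM. None was called, and the lowest p of the 3 in the authors' deposited table was 0.154, for rfng.

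Mib, which encodes the Mind bomb ubiquitin ligase that ligands need in order to signal, was listed at 0 in both groups. Its row lies on the unplaced scaffold Zv9_scaffold3504. All 1225 rows on unplaced scaffolds are listed at 0 in both groups and none was tested, against 5460 of 31208 rows on placed sequence listed at 0, so this 0 is no measurement of mib. For dtx4, a Deltex-type ubiquitin ligase gene, the table has instead the rows DTX4 (1 of 2), at 34.0 and 26.3 FPKM, and DTX4 (2 of 2), at 10.4 and 6.44 FPKM. Their p values in the authors' deposited table were 0.0978 and 0.109. They were kept out of the member counts.

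Her genes of the Hes1 type and the Hes5 type, repressors of which some are switched on by Notch activity, were the most abundant members. How far Notch activity sets the level of each was not tested. Her6 (ENSDARG00000006514, chromosome 6, 36329654 to 36332018), related to mammalian Hes1, led with 1124 and 846 FPKM and ranked 143 among the tested genes in wild-type and 163 in the knockdown. Her9, of the same type, was at 581 and 480 FPKM. Her2 followed her6 with 968 and 829 FPKM, and her12 was at 699 and 692 FPKM. The p of her6 in the authors' deposited table was 0.107, the lowest of the 4, and her6 was 1.33-fold lower in the knockdown.

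Most tested genes at 400 FPKM or more lay below 0 as well. The 4 members whose values both reach 400 FPKM, her6, her2, her12 and her9, had a median log2 fold change of -0.25, with 4 of 4 below 0. Over all 254 tested genes at that level the median was -0.18, with 195 below 0. On the TPM scale 3 of the 4 members stayed below 0, with her12 above, and so did 159 of the 254 genes. Her6, at -0.41, lay below the lower quartile of those 254 genes, which was -0.29. The limit of 400 FPKM was chosen after the values were seen, and the part of level in these values was not tested. At 100 FPKM or more, the 11 members had a median of -0.07 and the 879 tested genes one of -0.03.

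**Figure D3:**
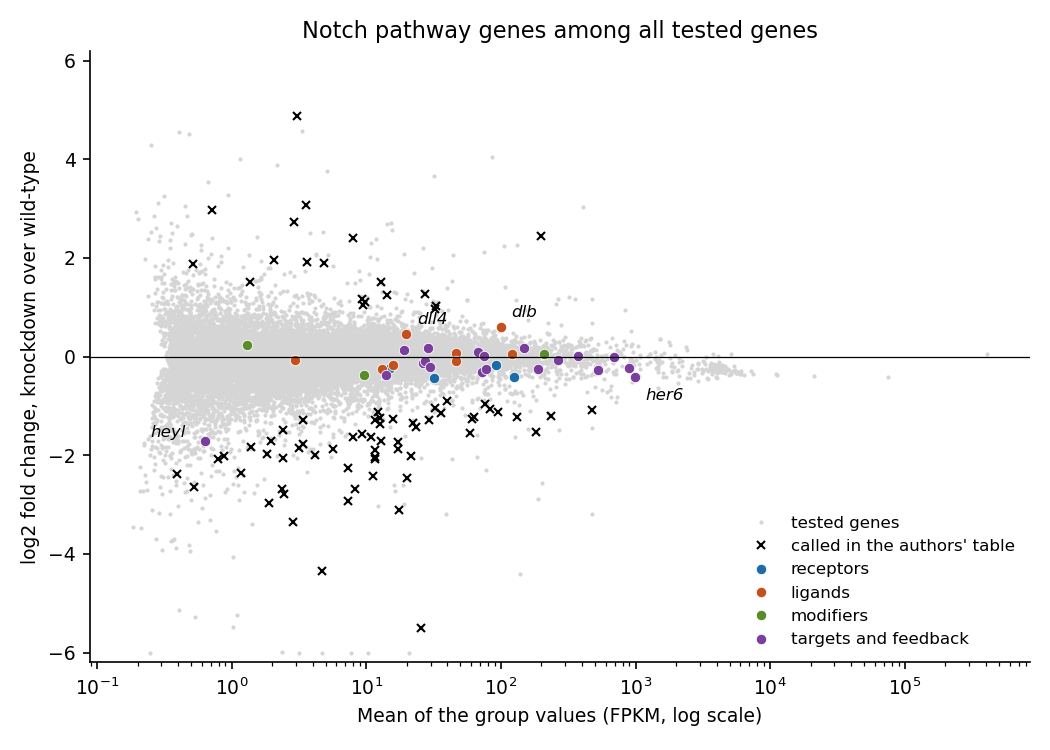
Deposited log2 fold change of all 18800 tested genes above 0 in both groups against the mean of their group values in FPKM on a log axis; members are coloured by class, crosses are genes called in the authors' table, and 6 genes beyond 6 log2 units are drawn at the edge. Members lie inside the grey cloud, heyl at its lower side among low genes, and the cloud bends below 0 at high levels.

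Tandem copies of the Hes5 type fill 2 clusters. On chromosome 23, her12 and the copies her4.1 to her4.5 lie between 21739063 and 21765164 with no other row between them. On chromosome 11, her2, her15.1 and her15.2 lie between 43073538 and 43103588, again with no other row inside. Copies within a cluster are closely related, so fragments can be shared between them and each single value is uncertain.

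All 9 genes of these clusters were below wild-type as values, and on the TPM scale 7 of the 9. Of the 6498 tested genes with both group values at 10 FPKM or more, 3149 lay below 0, and 1943 on the TPM scale. As copies can share fragments, the 9 values are not separate measurements. Her4.2 was at 83.7 and 70.8 FPKM and her4.1 at 80.9 and 64.8 FPKM. The other copies were lower in level: her4.5 at 31.6 and 27.5 FPKM, her4.4 at 27.8 and 25.4 FPKM, and her4.3 at 15.8 and 12.3 FPKM. Summed over the 5 copies, her4 stood at 240 and 201 FPKM, 1.2-fold lower.

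Her15.1 was at 270.0 and 257 FPKM and her15.2 at 203 and 171 FPKM. Across the 9 genes the values were between 1.01-fold lower, for her12, and 1.29-fold lower, for her4.3. None was called, and the smallest p among them in the authors' deposited table was 0.195.

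The remaining her and hes members lay at or above wild-type. Hes6 was at 74.7 and 75.7 FPKM, her8a at 65.9 and 70.1 FPKM and her13 at 18.2 and 19.9 FPKM. In the mouse Hes6 is known to act against Hes1 and to promote neuronal differentiation. The hes6 row covers a merged locus that it shares with itm2cb, at 13.0 and 15.07 FPKM, so fragments of either gene may enter the other's value.

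Hey genes, targets best known from the heart and the arteries, split. Hey1 was at 139 and 158 FPKM and hey2, required for the zebrafish aorta, at 27.0 and 30.5 FPKM, 1.13-fold higher each. Heyl (ENSDARG00000055798, chromosome 19, 33929337 to 33936055) had a wild-type value of 0.969 FPKM and a knockdown value of 0.294 FPKM, 3.29-fold lower, and the authors' deposited table gives p = 0.0055 and q = 0.344. It is the sole tested member under 1 FPKM and the sole one past 1.5-fold downwards. Of all 18800 tested genes above 0 in both groups 1824 passed that fold downwards, or 9.7%. Of the 15109 with both values at 1 FPKM or more 836 did, so the share is larger among genes as low as heyl. At this level the ratio rests on few fragments, whose number is unknown.

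Feedback inhibitors of the Nrarp type, small ankyrin-repeat proteins that destabilise the Notch transcription complex and are themselves Notch targets, differed least. Nrarpa (ENSDARG00000091419, chromosome 10, 10826654 to 10830227) was at 374.9 and 375.5 FPKM, the smallest difference of any tested member on the FPKM scale, though not on the TPM scale. Nrarpb was at 28.0 and 26.2 FPKM. The p values in the authors' deposited table were 0.993 and 0.703.

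**Figure D4:**
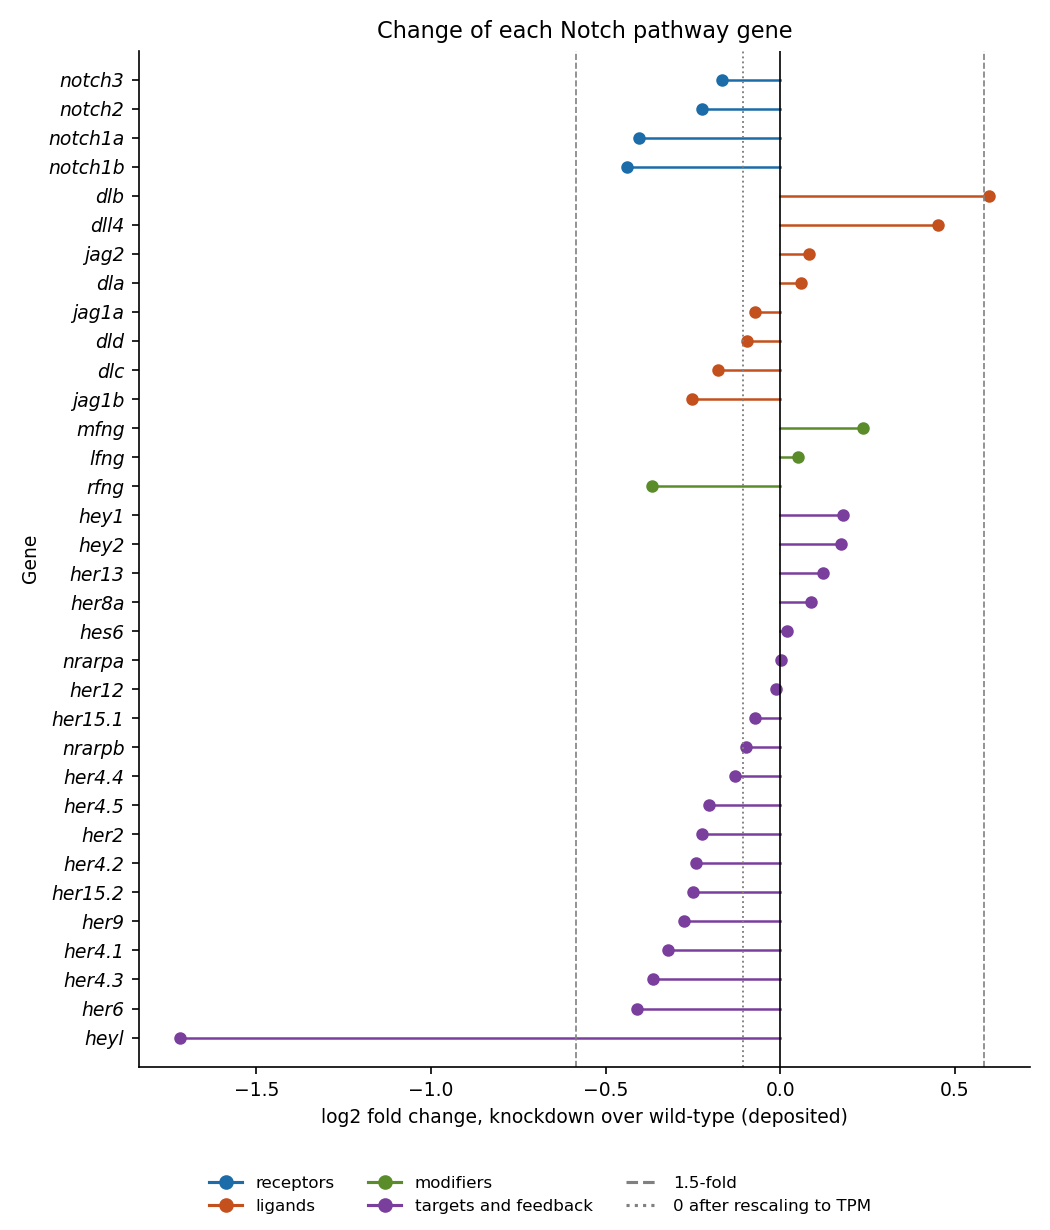
Deposited log2 fold change, knockdown over wild-type, of the 34 tested members, ordered within their class; dashed lines mark 1.5-fold, and the dotted line marks where 0 would lie after rescaling to TPM. Dlb at 0.60 and heyl at -1.72 pass the dashed lines, while all 4 receptors and all 9 clustered her genes lie left of 0, and 7 of these 9 left of the dotted line. Of the 6498 tested genes with both group values at 10 FPKM or more, 3149 lay below 0, and 1943 on the TPM scale.

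The classes differed in their medians as a description. The median log2 fold change was -0.31 for the 4 receptors, -0.0065 for the 8 ligands, 0.05 for the 3 modifiers and -0.13 for the 19 target and feedback genes; on the TPM scale these became -0.21, 0.10, 0.16 and -0.02. Summed over each class, receptors stood at 294 and 236 FPKM, ligands at 343 and 390 FPKM, and targets and feedback genes at 4814 and 4231 FPKM. These sums are not rescaled, and all rows together summed to 1.456e+06 and 1.353e+06 FPKM. Abundant genes weigh most in them, such as dlb at 79.9 and 121 FPKM and her6 at 1124 and 846 FPKM. The receptor sum includes the 249-base notch1a row, at 143 and 108 FPKM, whose level is uncertain. A test between classes was not possible with 1 value per group.

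The sizes involved can be set beside what the authors' test called. Among the 77 called genes above 0 in both groups the smallest rise was that of clec14a, at a log2 fold change of 0.96 in the authors' deposited table, and the smallest fall was that of zgc:55733, at -0.91. Of the 34 members heyl alone exceeds these sizes, and 24 lie within 1.2-fold. Of the 30 members with both group values at 10 FPKM or more, 22 lie within 1.2-fold, and of all tested genes at that level 75.2% do. The missing calls therefore do not show that these genes were equal between groups.

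Other genes of the Notch machinery, with further her, hes and related bHLH genes and proneural genes, were read from a list of 58 names. Of these 50 were tested, among them 10 of the further her, hes and related bHLH genes and 6 proneural genes, both described below. By the authors' call 0 were higher and 0 lower. In the authors' deposited table, at an unadjusted p under 0.05, 1 was higher, adam17a, and 7 were lower. Of these 7, 5 were further her, hes and related bHLH genes, 1 was the proneural gene ascl1a and 1 was poglut1. Among all tested genes 1.77% were higher and 3.76% lower by that p rule. The median log2 fold change of the 50 was -0.17, against -0.03 over the 18800 tested genes above 0 in both groups. Of the 50, 36 lay below 0 (72%), against 54.1% of those 18800 genes. The 36 include 8 of the 10 further her, hes and related bHLH genes and 5 of the 6 proneural genes. On the TPM scale 30 of the 50 lay below 0, and 7557 of the 18800. Most core parts differed little: psenen, a subunit of the gamma-secretase that releases the receptor's intracellular part, was at 39.7 and 45.0 FPKM. Adam10b, a protease that cuts the receptor first, was at 44.7 and 42.0 FPKM, and snw1, a co-activator of the nuclear complex, at 83.2 and 83.4 FPKM. The histone deacetylase gene hdac1 was at 351 and 365 FPKM, and epn1, an endocytic adaptor, at 37.9 and 34.3 FPKM.

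Poglut1, which adds glucose to the extracellular repeats of Notch, was at 25.2 and 14.4 FPKM, 1.75-fold lower, at p = 0.00465 and q = 0.32 in the authors' deposited table. Pofut1, which adds the fucose that Fringe extends, was at 21.7 and 26.0 FPKM. Adam17a, a protease that sheds many surface proteins, was at 7.93 and 11.5 FPKM (p = 0.0257 in the authors' deposited table).

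The further her, hes and related bHLH genes outside the member list were mostly lower as values, on the TPM scale too. Of 10 tested, 8 lay below 0 and 5 were lower at an unadjusted p under 0.05, and the median log2 fold change of the 10 was -0.70. Among all tested genes 3.76% were lower by that p rule. Of the 18800 tested genes above 0 in both groups 54.1% lay below 0, and their median was -0.03. Hes2.2 was at 6.96 and 2.66 FPKM, and was not called (p = 6e-04 and q = 0.0948 in the authors' deposited table). The related hes2.1 was at 7.39 and 3.43 FPKM (p = 0.0136 in the authors' deposited table). Her11, a gene of the midbrain-hindbrain region, was at 9.69 and 5.66 FPKM, and her8.2 at 3.87 and 2.14 FPKM. Bhlhe41, a repressor tied to the circadian clock, was at 1.77 and 0.885 FPKM, and bhlhe40, the most abundant of the list, at 16.4 and 14.3 FPKM. All 10 were lower in level than most members, with 16.4 FPKM as the highest wild-type value. Of the 10, 6 passed 1.5-fold downwards and 1 upwards. Of all tested genes above 0 in both groups 9.7% passed 1.5-fold downwards, against 2.52% at 10 FPKM or more. The part of expression level in the values of this list was not tested.

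Proneural genes, which her proteins repress, were not called either. Of 6 tested, 5 lay below 0, or 4 on the TPM scale. Among all tested genes above 0 in both groups 54.1% lay below 0 on the FPKM scale. Ascl1a was at 31.9 and 22.8 FPKM (p = 0.0469 and q = 0.884 in the authors' deposited table), and neurod4 was at 51.1 and 43.9 FPKM.

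Lists for further cell types of an embryonic head were read beside these values. They too were chosen with earlier results of these data known. Of 13 neural progenitor markers 1 fell by the authors' call, fabp7a, a fatty acid binding protein of radial glia, from 330.3 to 144 FPKM (2.30-fold). The intermediate filament genes nes, at 13.4 and 20.0 FPKM, and vim, at 27.9 and 41.5 FPKM, were higher without a call (p = 0.0126 and p = 0.0237 in the authors' deposited table). Among all tested genes 1.77% were higher at an unadjusted p under 0.05. Of the 13 markers 7 lay above 0 and 6 below, among the latter sox2, at 161 and 123 FPKM. The list's median log2 fold change was 0.03, and its summed level was 2521 and 2347 FPKM, of which fabp7a made 330.3 and 144 FPKM. The most abundant was pcna, at 1064 and 1083 FPKM. Of 11 tested early neuron markers 0 were called and 0 had an unadjusted p under 0.05 in the authors' deposited table, with a summed level of 771 and 845 FPKM, the highest being tubb5 at 253 and 322 FPKM. All 13 pineal markers were below wild-type, and 9 had an unadjusted p under 0.05 in the authors' deposited table. By the call 7 fell (otx5, gngt1, gngt2a, saga, sagb, rcv1 and pde6g). Among all tested genes 3.76% were lower at that p and 0.332% fell by the call. The pineal markers summed to 356 and 176 FPKM, of which flh made 238 and 129 FPKM. Presomitic and somite markers, tissues in which Notch genes cycle, summed to 43.9 and 39.3 FPKM over 7 tested genes, of which 0 were called and ripply1 made 30.9 and 26.6 FPKM. Their median log2 fold change was -0.67, with 5 of 7 below 0, and the muscle regulator myod1 was at 0.865 and 0.244 FPKM (p = 0.00425 in the authors' deposited table). Besides ripply1 only meox1, at 10.1 and 10.9 FPKM, reached 1 FPKM among the 7. The median is the value of mespaa, at 0.462 and 0.290 FPKM, and ratios at so low a level are uncertain. Mural, hair cell and ionocyte markers were at 2.95 FPKM or less in wild-type, the highest of each being pdgfrb, myo7aa and foxi3a. The part of any of these cells in the Notch gene values was not tested. The targeted gene tbx2b was at 17.4 and 18.3 FPKM, a gene-level value that does not check a splice morpholino.

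**Figure D5:**
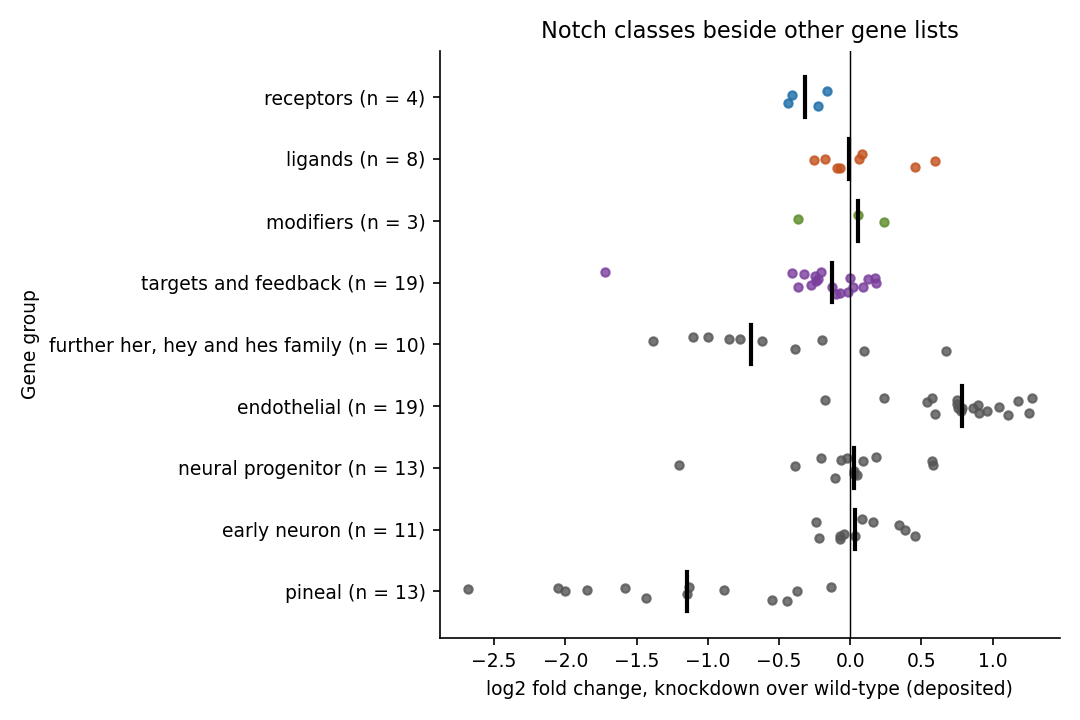
Deposited log2 fold changes, knockdown over wild-type, of tested genes in the Notch classes (coloured) and in other lists (grey), with 1 point per gene, random vertical spread and a black bar at each median. The Notch classes have medians between -0.31 and 0.05, with endothelial markers at 0.79 and pineal markers at -1.14.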

How the data were processed

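RNA sequencing of 8 libraries in 2 groups was read from 1 table of the authors. Per the submitters' processing notes, the build was Zv9 and the tools include Cuffdiff, TopHat2, Bowtie2, Trimmomatic 0.32, FastQC 0.10.0 and CASAVA 1.8.2. Not given in the sources used here are settings, annotation and how technical replicates were handled. Per the file headers, the authors give 1 FPKM value per gene and group, the log2 fold change of knockdown over wild-type, a test statistic (here treated as a score), a p value and a q value. The deposited q was recomputed from p by Benjamini-Hochberg over the 18954 tested genes, with differences of at most 5.2e-07. FPKM depends on the other RNAs sampled, and library totals are not in the table, so no intervals were computed.

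Members and lists were chosen with earlier results of these data known. Calls are the authors' flag, with a largest q of 0.0457. Folds, sums, shares and medians were computed from group values with Python 3.11.15 and pandas 2.3.3. The code of the median was checked on deposited log2 fold changes drawn at random, to which a fixed shift was added. Such a check covers the code alone and not the results. Medians use tested genes above 0 in both groups. Members were named by class; of the machinery list, the most abundant gene of each role and genes with an unadjusted p under 0.05 were named; of the marker lists, called genes and the most abundant gene. Nes, vim, sox2, meox1, mespaa and myod1 were added after their values were seen. The machinery list of 58 names includes the further her, hes and related bHLH genes and the proneural genes. Of these 58 names and the marker names, 6 had no row, 8 were matched ignoring letter case and 4 by gene ID. Gene starts are as in the file, with the base they are counted from unstated.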

Additional observations from a re-analysis of the deposited data

How the results depend on the processing

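No paired analysis was possible because the table holds group values without replicate numbers; for the same reason no library could be left out. In place of the authors' call, an unadjusted p under 0.05 gave 1 member higher (dlb) and 1 lower (heyl), and a q under 0.1 gave 0 and 0. Past 1.5-fold there was 1 member higher under each setting tried and 1 lower, or 0 lower over members at 1 FPKM or more, which leaves heyl out by construction. The members' median of -0.11 moved to -0.0074 on the TPM scale, -0.093 centred on the median of tested genes at 1 FPKM or more in each group, -0.10 over members at 1 FPKM or more and -0.072 without the her4 and her15 copies. It was -0.15 with the NOTCH1 and DTX4 rows used and -0.11 over members at 10 FPKM or more, both chosen after seeing the data, and -0.11 with a pseudocount of 1 FPKM. The ligand median of -0.0065 turned to 0.10 on the TPM scale and to 0.0023 with the pseudocount. The other class medians kept their direction. No error can be given for low genes such as heyl and mfng, whose depth is unknown.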

Other observations

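The order of the test statistics does not match that of the p values among the members. Notch1a has a statistic of -2.44, the largest in size among the 34 tested members, and p = 0.28 in the authors' deposited table, whereas dlb has a statistic of 1.07 and p = 0.0302. The notch1a row spans 249 bases.

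A row without a gene name beyond its clone label, si:ch73-21g5.7 (ENSDARG00000093156), lies next to her4.5 on Zv9 chromosome 23, 21767244 to 21768618. Its values were 293 and 238 FPKM, above each of the 5 her4 copies in level and 1.23-fold lower in the knockdown.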
